A study of Drosophila melanogaster with 4 samples.

Results

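The regions described here are those stretches of H3K79me1 enrichment that the authors placed on parts of the fly genome assembled from heterochromatin. They were chosen by sequence name alone, as every enriched region on a sequence whose name ends in Het in FlyBase release 5. The replicate 1 list held 110 such regions of 7603 in all, the replicate 2 list 102 of 8137, and the list that the authors made from the combined replicates 154 of 12942. Across the 3 lists that is 366 of 28682 regions. The study used chromatin immunoprecipitation and sequencing (ChIP-seq), with lot 1 of an Abcam antibody, on nuclei from the heads of Oregon-R flies. All samples share this wild-type genotype, the strain form Oregon-R-modENCODE and the stage given as mixed adult. There were 2 ChIP libraries and 2 libraries of input DNA, with labels that name the ChIP list each input was used for. The labels give neither the sex nor the exact age of the flies, and heads contain many cell types. Separate collections of flies for the replicates are not stated, so the spread between them may be technical. Region lists hold no expression values, so the labelled tissue could not be checked against marker genes.

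Monomethylation of lysine 79 lies in the globular core of histone H3. It is deposited by the Dot1 family of methyltransferases, which in flies is represented by the product of grappa, and is usually found over the bodies of transcribed genes. Heterochromatin surrounds the centromeres and makes up most of the Y chromosome. It is rich in transposons and satellite repeats, is bound by HP1 and is largely silent. It also holds a set of essential genes, light and rolled among them, which have been shown in flies to be expressed in this surrounding and to lose expression when moved away from it. The Het sequences are portions of this DNA that could be assembled and attached to a chromosome. Whether the sequences of the arms hold more of it, and where light and rolled lie, was not analysed here. Genes and DNA letters under the regions were not analysed here, for want of a release 5 genome.

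Each region has a position and the authors' own score. The score has no stated unit and is read here as log2, so that it ranks regions within a list but sets no level across lists. Library depth is unknown from these files. With 2 replicates and no second condition, no test can be made that reaches significance (the smallest two-sided exact sign p is 0.5), so differences are set against the spread between replicates and checked for direction in each list.

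H3K79me1 regions covered a small part of the Het sequences, and most of that part lay on 2RHet and 3LHet. Over the 6 Het sequences, 9.28 Mb in all, 547 kb lay in regions of replicate 1 and 457 kb in regions of replicate 2 (5.89% and 4.93%, mean 5.41% ± 0.679, SD, n = 2). On the 5 large arms the shares were 18.1% and 19.5%. Het coverage was therefore 0.326 of that on the arms in replicate 1 and 0.253 in replicate 2. The arms averaged 18.8% ± 1.01 (SD, n = 2), so the difference exceeded the spread between replicates. By number of regions per Mb the ratios were lower, at 0.190 and 0.164.

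2RHet was covered to 7.70% and 6.38% in replicates 1 and 2, by 49 and 38 regions. 3LHet, the other well-marked sequence, was covered to 7.85% and 7.06%, by 44 and 48 regions. These 2 sequences did not differ beyond the spread between replicates. 3RHet, of nearly the same length as 3LHet, stood lower at 3.11% and 2.25%, with 14 and 12 regions. Together 2RHet and 3LHet make up 63.0% of the Het length and held 83.1% and 85.3% of the covered length. XHet (204 kb) was covered to 2.95% and 2.51%, and 2LHet (369 kb) to 2.28% and 1.49%. YHet, 347 kb of Y-linked sequence, held no region in any of the 3 lists. All shares are over full sequence lengths, and assembly gaps were not analysed here.

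**Figure D1:**
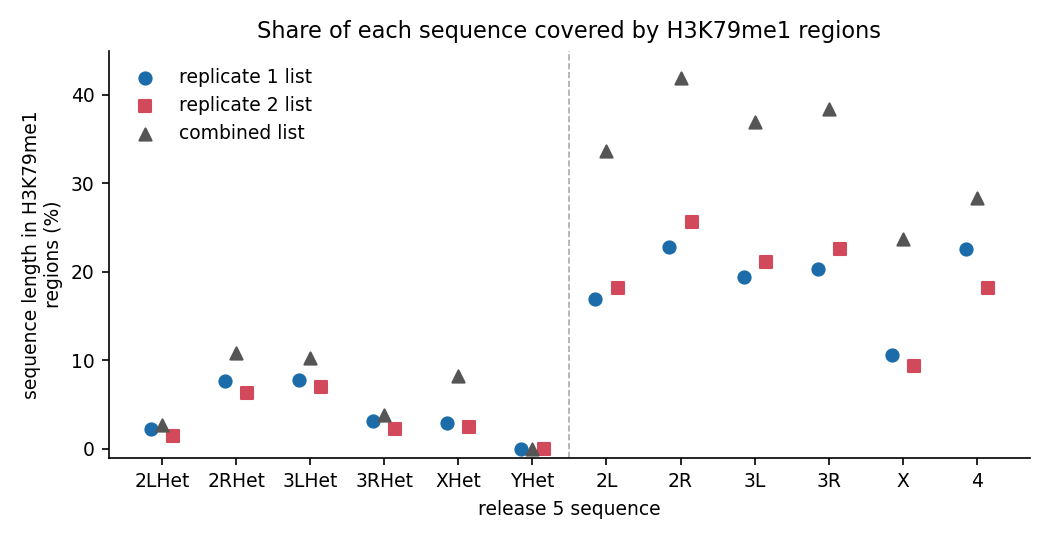
Percentage of each release 5 sequence inside H3K79me1 regions (y axis) for the 6 Het sequences, left of the dashed line, and for the 6 chromosome arms. Circles are the replicate 1 list, squares the replicate 2 list and triangles the authors' combined list. 2RHet and 3LHet lie between 6.38% and 7.85% in the replicate lists, and YHet at 0.

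Most regions lay within a small part of the Het length. When the regions of both replicate lists were chained over gaps of up to 20 kb, they formed 29 stretches, 20 of them with 3 or more regions. Those 20 made up 0.853 Mb, or 9.19% of the Het length, and held 102 of the 110 regions of replicate 1 (92.7%) and, for replicate 2, 96 of 102 (94.1%). Inside them 59.0% of the bases were covered in replicate 1 and 49.2% in replicate 2. A place called in both lists counts more than once towards the 3. On 2LHet, for example, 1 region of replicate 1 and 2 of replicate 2 at the same place made such a stretch. Chaining replicate 2 alone gave 11 stretches of 3 or more regions, and replicate 1 alone 14. No such chaining of the large arms is given here.

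Both of the longest stretches were on 3LHet. The first ran for 170 kb, from 1223959 to 1394280, with 25 and 24 regions that covered 52.7% and 47.8% of it. The other, of 153 kb from 2399514 to 2552247, held 15 and 19 regions over 58.4% and 48.3%. Its regions ranked higher, with median score percentiles of 94.8 and 81.5 within their lists, against 75.9 and 55.1 in the first. On 2RHet the longest stretch, 80.9 kb from 1850882 to 1931806, was sparse, with 6 and 5 regions over 17.5% and 14.5% of its length. A shorter one on 2RHet, 67.5 kb from 1266921 to 1334374, was dense, with 6 regions in each list over 74.8% and 64.6%. 3RHet had 1 stretch of this size, 62.8 kb from 1935742 to 1998573, covered to 65.7% and 45.8%. These 5 stretches held 52.1% of the covered Het length of replicate 1 and 52.3% of that of replicate 2.

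Between the stretches lay long tracts without any region. Over all 3 lists, 17 tracts of at least 100 kb held none, and they summed to 7.16 Mb or 77.1% of the Het length. The longest was the first 1685 kb of 3RHet, which is 66.9% of that sequence. On 2RHet, 825 kb were free from 1952065 to 2777289. On 3LHet, 717 kb were free from 1529421 to 2246273, 597 kb from its start to 596519, and 479 kb from 709491 to 1188281. Nearly all of 2LHet past its marked end was free as well, 339 kb from 30279 to 368872. Which of these tracts can hold uniquely aligned reads was not tested.

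Wide regions held much of the covered Het length. The median width was 2812 bp in replicate 1 and 2406 bp in replicate 2, against 2045 bp and 2046 bp on the large arms. By the median, regions of chromosome 4 were wider still, at 4293 bp, 2736 bp and 3927 bp in the replicate 1, replicate 2 and combined lists. Mean widths on the Het sequences were 4969 bp and 4485 bp, against 2899 bp and 2914 bp on the large arms. By the mean, chromosome 4 stood below the Het sequences in both replicates, at 4494 bp and 3614 bp. In the combined list the means were close, 4861 bp on chromosome 4 and 4813 bp on the Het sequences. The widest regions of chromosome 4 reached 14567 bp and 12540 bp in the replicates, against 29124 bp and 27064 bp on the Het sequences. At least 10 kb were spanned by 15 of 110 regions in replicate 1 (13.6%, 95% Wilson interval 8.44 to 21.3) and by 10 of 102 in replicate 2 (9.80%, 5.41 to 17.1). Over all regions of these lists the shares were 2.22% and 2.27%. The intervals treat regions as independent and cover counting error only. Regions of that width held 47.2% and 33.8% of the covered Het length. This share by length is not given here for the large arms. In the combined list the median Het width was 1993 bp, close to the 1999 bp of the arms, while 24 of 154 regions (15.6%) reached 10 kb against 4.56% of all combined regions.

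The widest Het region of the combined list spanned 40.1 kb on 2RHet, from 3136426 to 3176490, with a score of 1.03. In replicate 1 it was split into 2 regions (96.1% covered), the wider from 3147402 to 3176525 with a score of 1.19. In replicate 2 there were 3 regions (93.7%). Its core, 27.1 kb from 3148123 to 3175186, was the longest Het segment inside both replicate lists. Next came 28.2 kb on 2RHet from 1284442 to 1312666, a single region in replicate 1, from 1284708 to 1312554 (98.7% covered), and 3 regions in replicate 2 (94.3%). Another domain of similar width lay on 3RHet from 1949684 to 1977902. It was again a single region in replicate 1, from 1949366 to 1976668 (95.6%), but replicate 2 cut it into 4 regions (69.5%). On 3LHet the combined domain of 22.3 kb from 2469740 to 2491996 held 2 regions of replicate 1 (96.3%), the wider from 2469927 to 2489582, and 5 of replicate 2 (78.5%).

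Several wide domains were delimited almost alike. The closest match among paired regions was narrower, 1332361 to 1337849 on 3LHet in replicate 1, whose boundaries lay 11 bp and 32 bp from those in replicate 2. On 3RHet the replicate 1 region from 1684992 to 1704230 matched one of replicate 2 from 1684911 to 1704060, with an offset of 81 bp at the start and 170 bp at the end. It stood alone, next to the 1685 kb without a region. On 2RHet the boundaries of a region of 18.2 kb in replicate 1, from 227732 to 245886, lay 100 bp and 152 bp from those of the replicate 2 region from 227632 to 245734. On 3LHet a domain of 15.6 kb from 2246274 to 2261842 was a single region in each replicate, covered to 96.3% and 95.8%, with the replicate 2 region from 2246904 to 2261817 scoring 1.05. On 2RHet the region from 2806902 to 2820420 was likewise single in each, covered to 99.2% and 95.3%.

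Over the 24 combined Het regions of at least 10 kb, the covered share ran from 70.7% to 99.2% in replicate 1 (median 92.3%) and from 38.5% to 98.1% in replicate 2 (median 84.4%). The medians on the large arms were 77.4% and 79.2%, over 557 combined regions of that width. Replicate 1 covered more of the domain in 19 of the 24 Het cases, and in 252 of the 557 on the arms. A domain was a single region in 12 cases in replicate 1 and in 8 in replicate 2. The 22.8 kb domain on 2RHet from 54568 to 77320 was the most broken, with 5 regions in each list over 71.8% and 45.1% of it. Its score percentile, 72.4, was the lowest of the 24.

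**Figure D2:**
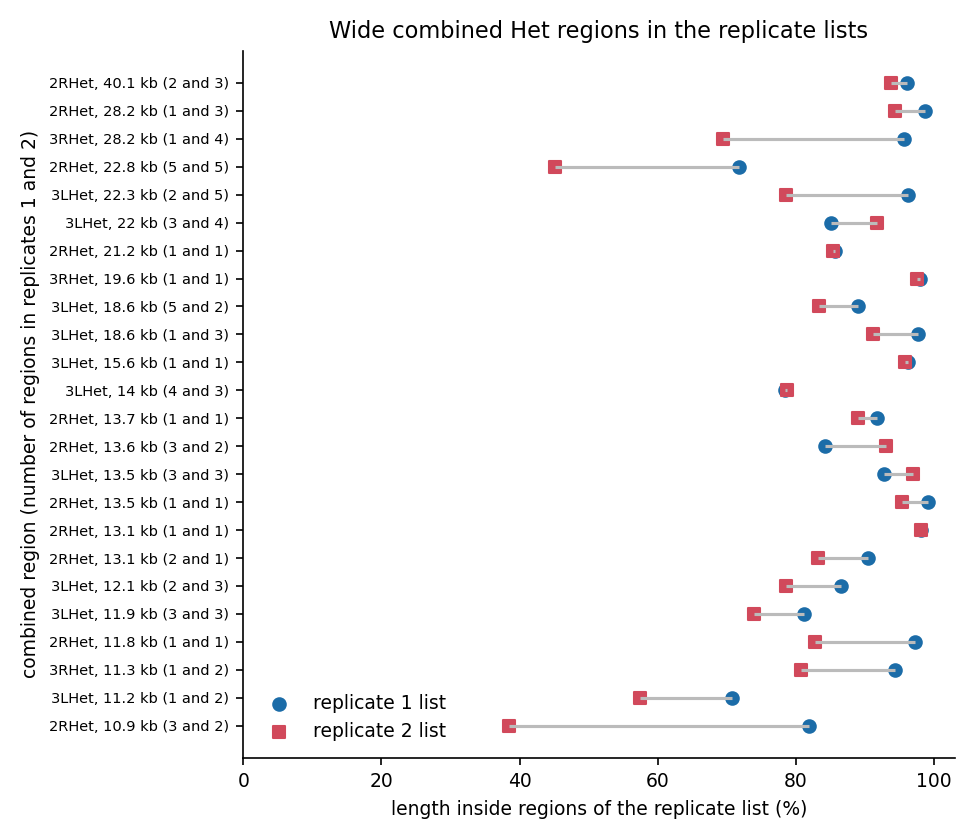
The 24 combined Het regions of at least 10 kb, ordered by width, with the percentage of each inside regions of replicate 1 (circles) and of replicate 2 (squares); the numbers in brackets count the regions of replicates 1 and 2 that touch it. In 19 of the 24 the circle lies to the right of the square.

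Where a replicate 1 and a replicate 2 region each covered at least 50% of the other, there were 52 Het pairs. Their boundaries were a median of 366 bp apart, against 331 bp over 3660 pairs on the large arms. Spearman's rho over the Het pairs was 0.83 between scores and 0.92 between widths, a description across regions that are not independent and that share their libraries. The region was wider in replicate 1 in 38 of the 52 pairs (73.1%), and in 46.0% of the pairs on the arms.

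A large share of the Het regions scored high within their lists. At or above the 90th score percentile of its list lay 36 of 110 regions in replicate 1 (32.7%, 24.7 to 41.9), where all regions of the list gave 10.0%. In replicate 2 the count was 24 of 102 (23.5%, 16.4 to 32.6), against 10.1% of the whole list, and in the combined list 49 of 154 (31.8%, 25.0 to 39.5), against 10.0%. The median Het score was 0.80 in replicate 1 and 0.68 in replicate 2, where the large arms had 0.68 and 0.62. The X, 1 of these arms, was itself high, with medians of 0.76 in both replicates. Its median percentile was 71.4 in replicate 1, below the 79.8 of the Het regions, but 82.7 in replicate 2, above their 65.4. In the combined list the X stood at 73.0 and the Het regions at 74.7. Score and width went together, with a Spearman's rho across Het regions of 0.52 in replicate 1 and 0.67 in replicate 2, as a description. Within width classes the Het median still exceeded that of the arms in both replicates, at 0.95 against 0.87 and 0.87 against 0.79 for regions of at least 5 kb. Under 2 kb the medians were 0.64 against 0.60 in replicate 1, and in replicate 2 both rounded to 0.55.

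The sequences differed in rank. The median percentile on 2RHet was 83.7 in replicate 1 and 80.2 in replicate 2, and on 3LHet 82.2 and 60.4. On 3RHet it was 41.9 and 45.4, below the middle of either list, although the 19.2 kb region on that sequence stood at 99.4 and 98.2. Among shared regions the top position belonged in replicate 2 to the 12.9 kb region on 2RHet from 2807095 to 2819981, with a score of 1.14 and rank 16 of the whole list. In replicate 1 the same place held a region of 13.4 kb, from 2806975 to 2820385, with a score of 1.23 and rank 21. Other high shared regions of replicate 2 lay on 3LHet from 2419748 to 2426414 (score 1.08, rank 46) and on 2RHet from 3207147 to 3218050 (score 1.04, rank 71). Also shared was its region of 15.0 kb on 2RHet from 1290260 to 1305228 (score 0.97), which lay whole within a replicate 1 region.

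**Figure D3:**
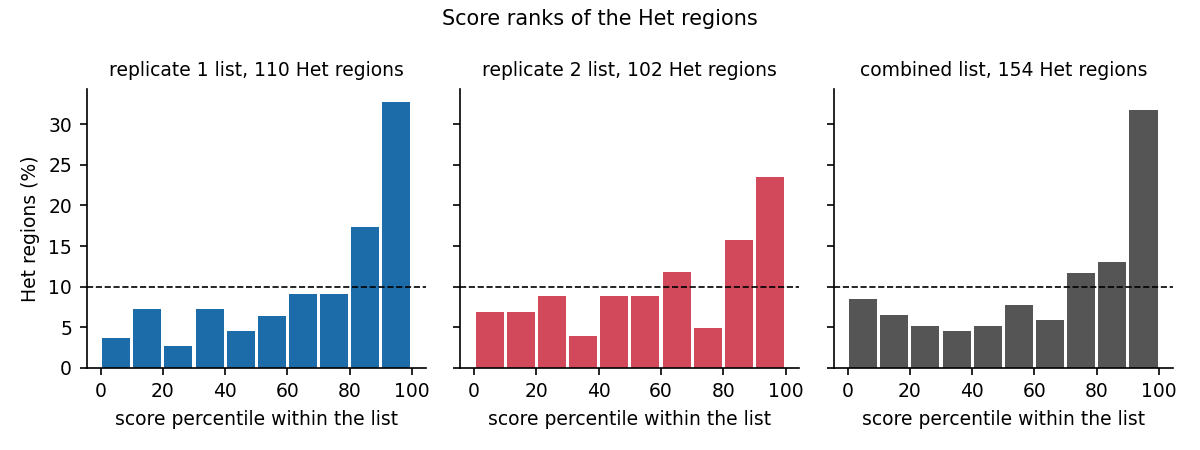
Percentage of the Het regions of each list (y axis) in 10 equal classes of score percentile within that list (x axis); the dashed line marks the 10% that a list's own regions hold per class. The top class is the fullest in every list, with 32.7%, 23.5% and 31.8% of the Het regions.

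Presence in the other list was uneven in its direction. Of the Het regions of replicate 1, 78 of 110 (70.9%, 61.8 to 78.6) had at least 1 bp in a replicate 2 region, where all replicate 1 regions gave 73.5%. In reverse, 91 of 102 replicate 2 regions (89.2%, 81.7 to 93.9) had a base in replicate 1, where all replicate 2 regions gave 68.4%. The first share is near that of its list and the second above it. By length, 407 kb lay inside both lists, which is 74.5% of the Het bases of replicate 1 and 89.0% of those of replicate 2. On the large arms these shares were 69.4% and 64.4%. The length in both lists over the length in either was 0.682 on the Het sequences and 0.502 on the arms. Replicate 1 held the larger Het length and replicate 2 the larger length on the pooled arms. The X went the way of the Het sequences, with 2376 kb in replicate 1 and 2110 kb in replicate 2, as did chromosome 4, with 306 kb and 246 kb. On chromosome 4 the bases in both lists were likewise 70.0% of those of replicate 1 and 87.1% of those of replicate 2, and 0.634 of the length in either, so this unevenness was not particular to the Het sequences. The part of depth or library in this was not tested.

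On 3RHet 7 of the 14 replicate 1 regions were shared, and all 12 of replicate 2. On 2RHet the counts were 32 of 49 and 32 of 38, and on 3LHet 37 of 44 and 44 of 48. Every Het region of at least 5 kb was shared, 27 in replicate 1 and 28 in replicate 2, as were 99.7% and 99.5% on the large arms. Under 2 kb, the shared regions were 14 of 38 in replicate 1 (36.8%, 23.4 to 52.7; arms 54.3%) but 24 of 34 in replicate 2 (70.6%, 53.8 to 83.2; arms 46.6%). Replicate 1 thus stood below the arms and replicate 2 above them in this class.

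The 32 Het regions found in replicate 1 alone were 1303 to 3842 bp wide, and 21 of them lay within 10000 bp of the nearest replicate 2 region. The 11 found in replicate 2 alone were 1371 to 2363 bp wide, and 7 lay that close to a replicate 1 region. Counts within 10000 bp are not given here for regions outside the Het sequences. All 110 and all 102 Het regions of the replicate lists had a base in the combined list. Nearly all regions of the large arms did as well, 7368 of 7418 in replicate 1 and 7882 of 7961 in replicate 2.

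Sharing of the high-scoring Het regions differed by width in the replicate lists. Those of at least 2 kb were shared with 1 exception. Those under 2 kb, only 7 and 2 regions, mostly were not. On the large arms 99.7% and 99.5% of all regions of at least 5 kb were shared, and high-scoring arm regions are not split by width here. In the combined list, 10 of the 15 high-scoring Het regions between 2 and 10 kb were in both replicates. Of the regions at or above the 90th score percentile, all 13 of replicate 1 and all 8 of replicate 2 that reached 10 kb had a counterpart. So had all 16 of replicate 1 and 13 of 14 of replicate 2 between 2 and 10 kb. Under 2 kb, 6 of 7 in replicate 1 and both in replicate 2 had none. In all, 6 of 110 Het regions of replicate 1 (5.45%, 2.52 to 11.4) scored that high without a base in replicate 2, against 0.644% of the whole list. In replicate 2 there were 3 of 102 (2.94%, 1.01 to 8.29), against 1.18%. The replicate 2 interval includes the share of its list.

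**Figure D4:**
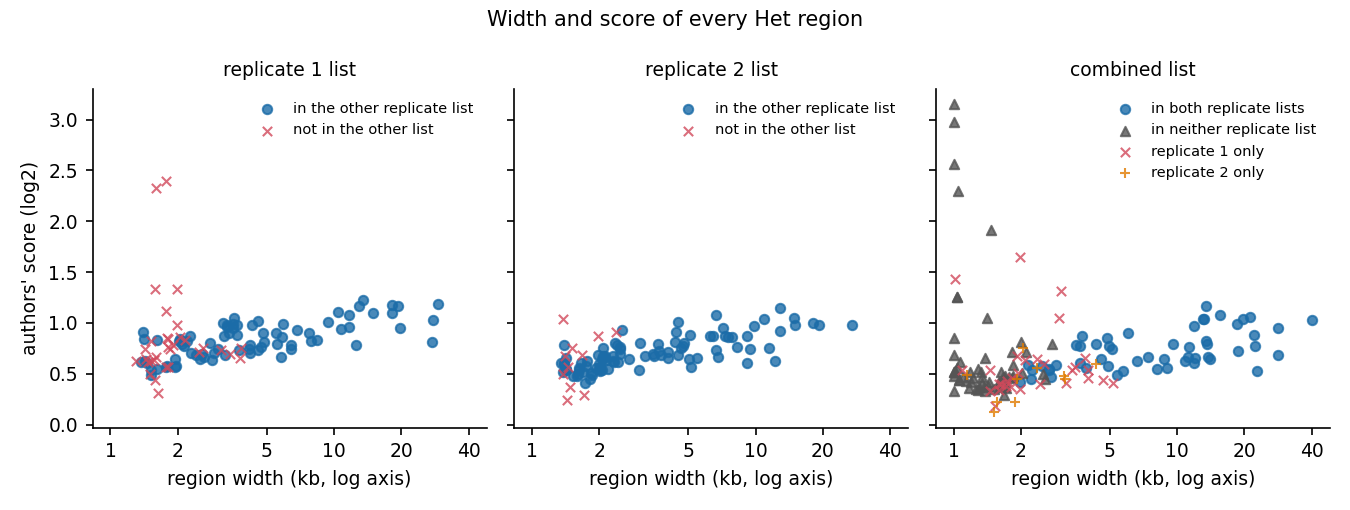
Width (x axis, kb, log axis) and the authors' log2 score (y axis) of every Het region in the replicate 1, replicate 2 and combined lists, marked by presence in the replicate lists. Scores above 1.3 belong to narrow regions absent from at least 1 replicate list, while regions of at least 10 kb lie below 1.3 and are shared.

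The highest score of the whole replicate 1 list, 2.40, belonged to a region of 1770 bp on 2RHet from 1313025 to 1314794. It sat in a gap between regions of both replicates, and the nearest replicate 2 region was 614 bp away. The combined list kept 57.2% of it, as a region of 1013 bp with a score of 1.43. Rank 2 went to 1596 bp on 3LHet from 2441668 to 2443263, with a score of 2.33. It was 1 of 3 such regions within 11.1 kb, with those from 2432168 to 2433756 and from 2439671 to 2441649, which shared rank 8 at 1.33. Replicate 2 held no base of the 3, its nearest regions being 1992 to 3606 bp away, and the combined list covered each to at least 99.9%, at scores of 1.05 to 1.65. The remaining 2 of replicate 1 lay on 2RHet, from 958875 to 960652 (score 1.11) and from 1859178 to 1861166 (0.97).

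In replicate 2 the high single-list regions lay close to replicate 1 regions, at 30 to 505 bp. The top one, 1371 bp on 2RHet from 3146001 to 3147371 with a score of 1.04, lay in the gap between replicate 1 regions that end at 3145829 and start at 3147402. Both sides of the gap and the region itself lie inside the 40.1 kb combined domain. The others were on 2RHet from 1909422 to 1911784 (score 0.91) and from 1867655 to 1869629 (0.87).

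**Figure D5:**
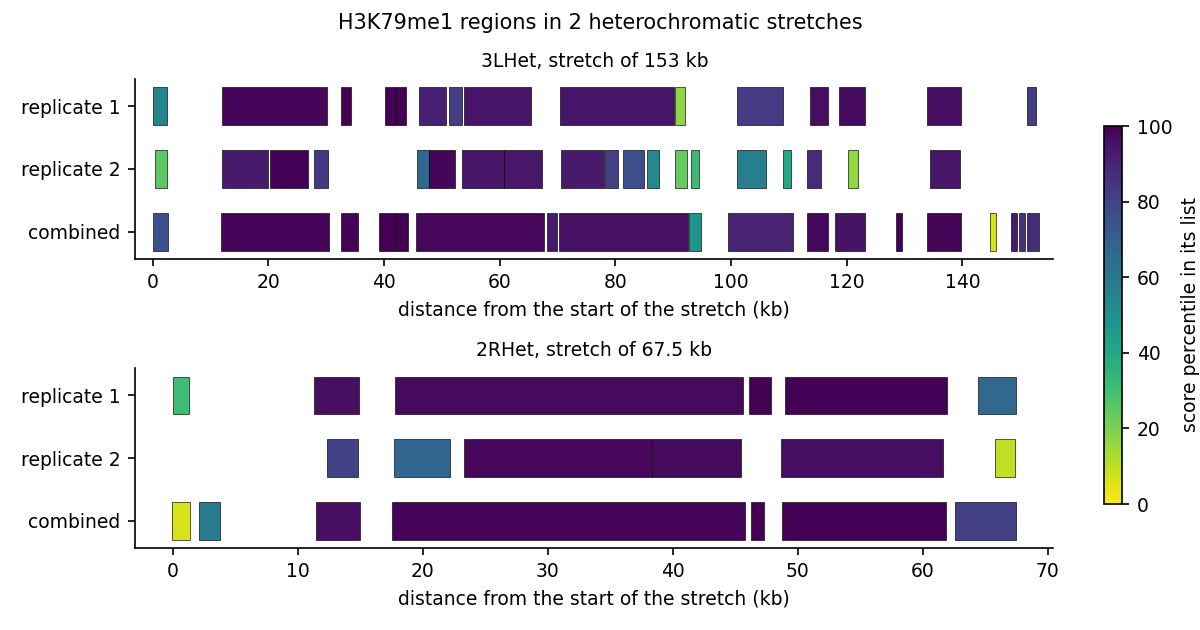
Regions of the 3 lists along a 3LHet stretch of 153 kb and a 2RHet stretch of 67.5 kb, as distance from the start of each stretch (x axis, kb), with colour for the score percentile within the list. The 3 high-scoring replicate 1 regions of the 3LHet stretch lie between 32.7 and 43.7 kb, where the replicate 2 row is empty, and the top region of replicate 1 is the narrow bar from 46.1 to 47.9 kb of the 2RHet stretch.

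In the combined list, the Het shares in both replicates and in neither were near those of the whole list, while the shares in a single replicate were not. Among its 154 Het regions, 53 (34.4%) overlapped both replicates, against 33.3% of all combined regions, and 61 (39.6%) in neither, against 38.5%. In replicate 1 only were 30 (19.5%, 14.0 to 26.4; 12.3% of all) and in replicate 2 only 10 (6.49%, 3.57 to 11.5; 15.9% of all), so that the order of these classes was the reverse of that in the whole list. The X, with 358 and 268 regions, and chromosome 4, with 9 and 5, had the same order as the Het sequences. The reversal was therefore not particular to them. Those overlapping both replicates had a median width of 8717 bp and held 557 kb or 75.1% of the combined Het length. Those in neither had a median of 1373 bp, against 1319 bp on the large arms, and held 87.9 kb. Narrower than 1301 bp, the narrowest region of either replicate list, were 27 of the 61. Among all 154 combined Het regions 19.5% were that narrow, near the 20.9% on the large arms. On 2RHet 35 of 79 regions were in neither list, and on 3LHet 16 of 48.

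Of the 61, 14 lay at or above the 90th score percentile of the combined list. They were 9.09% of the Het regions of that list (5.49 to 14.7), against 0.693% on the large arms. The 5 highest-scoring Het regions of that list were all of this kind, 1001 to 1465 bp wide. Their scores were 3.15 on 3LHet from 2527988 to 2528988, 2.98 on 2RHet from 1014110 to 1015110, 2.56 from 872914 to 873914, 2.30 from 1561710 to 1562754, and 1.92 on 3LHet from 1376140 to 1377604. They stood at ranks 2, 5, 9, 13 and 17 of 12942. The last one was the only one of the 5 wide enough to pass the width minimum seen in the replicate lists, and lay 332 bp and 286 bp from the nearest replicate regions. The read counts behind such scores are not given.

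The Het sequences also held some of the lowest scores. In replicate 2 a region of 1431 bp on 3LHet from 700993 to 702423 scored 0.24, with 2 regions of the list below it, and its neighbour from 707776 to 709490 scored 0.29. Both were absent from replicate 1, whose nearest regions were 488587 bp and 481520 bp away. In replicate 1 a region of 1631 bp on 3RHet from 1895030 to 1896660 scored 0.31, the rank of 5 counted from the lowest, and was absent from replicate 2. At or below the 1st percentile lay 1 Het region of replicate 1 (0.909%, against 1.00% of the whole list). In replicate 2 there were 3 (2.94%, 1.01 to 8.29, against 0.995%) and in the combined list 4 (2.60%, 1.01 to 6.49, against 0.997%). These 4 overlapped the replicate regions so counted and add no separate places.

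The smaller sequences held few regions. On 2LHet replicate 1 had a single region of 8407 bp from 19701 to 28107, with a score of 0.83. Replicate 2 had 2 regions inside it, from 20116 to 23601 (score 0.70) and from 25126 to 27147 (0.53). The combined list gave 1 region from 19778 to 28494 (score 0.64) and added 1281 bp beyond it, from 28998 to 30278. On XHet the replicates overlapped at 1 place, with the replicate 1 region from 65297 to 69505 (score 0.70) and that of replicate 2 from 64852 to 68507 (0.80). Each had 1 further XHet region without counterpart, at 69907 to 71719 (0.57) for replicate 1 and at 84925 to 86396 (0.37) for replicate 2. The combined list placed 6 regions on XHet, 4 of them in neither replicate list.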

How the data were processed

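The submitters' processing notes name Bowtie 0.12.7. Region lists, 1 per ChIP replicate and 1 from the combined replicates, were deposited by the authors, on FlyBase release 5 per the file headers. The caller, its threshold, any filter on multiply aligned reads and the way of combining are not stated there. The inputs enter through these calls alone. The deposited score per region was treated as log2, since 2 raised to score differences gave ratios of whole numbers (denominators up to 5000, relative tolerance 1e-11) for 99.3%, 99.9% and 96.9% of regions in the replicate 1, replicate 2 and combined lists, and for 93.6%, 100% and 96.1% of their Het regions. The 1 region named as depleted was left out.

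Regions counted as shared with at least 1 bp of overlap. Percentiles are ranks over a whole list. Computations used Python 3.11.15, numpy 2.4.6, pandas 2.3.3, scipy 1.17.1 and matplotlib 3.10.9, and the interval functions were tested on simulated lists. The text names the 5 widest and 5 highest-scoring Het regions of each list, the 5 highest found in a single replicate list, the longest shared segments, stretches and empty tracts, and the regions of sequences with 5 or fewer; the lowest-scoring regions, the boundary matches and other regions named beside them were chosen after their values were seen. Members and rules were chosen with earlier results of these data known. Alternatives for overlap, score, width, chaining and replicate are given at the end.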

Additional observations from a re-analysis of the deposited data

How the results depend on the processing

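With each replicate list alone, Het coverage was 4.93% to 5.89%, its ratio to the large arms 0.253 to 0.326, the number of regions 102 to 110, the median width 2406 to 2812 bp, the score difference to the arms 0.05 to 0.13, the share found in the other list 70.9% to 89.2%, stretches of 3 or more regions 11 to 14 (20 with both lists), and high-scoring regions of a single list 3 to 6 (9 in all). The combined list gave 7.99% coverage, a ratio of 0.228 and a median width of 1993 bp. Bases in both lists gave 4.39% and 0.350. The higher-scoring 50% gave 4.655%, 0.373 and 3792 bp, and 47.2% of combined regions in both replicates. By regions per Mb the ratio was 0.177. Merging within 1000 bp gave a median width of 3479 bp. The score difference was 0.019 under 2 kb, and 15.4 points as a mean percentile. Requiring 50% of both regions lowered the shared part to 49.1%, and a 2 kb minimum raised it to 93.7%. Combined regions as wide as the narrowest replicate region were in both lists in 42.7% and in neither in 27.4%. High-scoring regions of a single list numbered 16 from the 75th percentile, and 5 when regions up to 1000 bp apart counted as present. The ratio to the arms was below 1 for each replicate, the combined list, bases in both lists, the higher-scoring 50%, regions per Mb, and without 2RHet, 3LHet or the X. The score difference was above 0 for each replicate, the combined list, the 3 width classes and the mean percentile. Neither was computed under the other alternatives. No paired analysis was possible because only the ChIP libraries come with region lists. Unknown depth limits each comparison of list sizes. What causes each change was not tested.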

Other observations

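On 2RHet the combined list held 2 neighbouring chains of regions that the replicate lists barely showed. From 929592 to 1015110 it placed 14 regions over 85.5 kb, of which 10 were in neither replicate list and 1 was in both. From 850720 to 892658 it placed 5 over 41.9 kb, of which 4 were in neither and the other in replicate 1 only. The widest regions of these chains were 3119 bp and 2763 bp, and each chain held 1 region with a score above 2.5. By contrast, the 3 combined regions from 2777290 to 2820420 on the same sequence were 9559 to 13583 bp wide and all in both lists.

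Some high scores were tied. The 3LHet regions of replicate 1 from 2432168 to 2433756 and from 2439671 to 2441649 had the same score, within 1e-09, and the region from 2441668 to 2443263 scored 1.0 higher (to 4 decimals), a factor of 2 on the log2 scale. In the combined list the 3LHet region with a score of 3.15 and the 2RHet region with 2.98 each shared their score with 2 other regions of the list. None of the 24 combined Het regions of at least 10 kb shared its score with another region.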
